A study of Homo sapiens with 4 samples.

Results

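ATF4 and 9 genes of the integrated stress response were followed through a ZHX2 chromatin immunoprecipitation experiment: SHMT2, ATF3, DDIT3, ASNS, TRIB3, PSAT1, PHGDH, MTHFD2 and SESN2. Every row of the authors' deposited peak comparison that carried the symbol of one of the 10 genes was taken, which gave 8 of 8871 listed peaks. The peaks fell at 6 of the 10 genes, where 28.7% of all coding genes in RefSeq were annotated to a peak. On 7 lists of related stress genes, described below, 54.1% of 135 genes had one. ATF4 and TRIB3 had 2 peaks each and SHMT2, ATF3, PSAT1 and MTHFD2 had 1 each, while DDIT3, ASNS, PHGDH and SESN2 had none in the list. The genes were selected on the log2 folds and signals of these same 2 libraries, which were already known, so both are given here as a description and none is tested.

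The cells were DB, an established human B-cell lymphoma line. Chromatin from cells labelled ZHX2 and from cells labelled ZHX2 Mut4 was precipitated with one antibody against ZHX2, a transcription factor with zinc fingers and homeodomains. Which residues differ in Mut4, how either form was introduced and whether cells kept their own ZHX2 are not given in the labels. There was 1 ChIP and 1 input library for each form, and the deposited comparison sets the 2 ChIP libraries against each other, so no replicate error exists for any value. Reads in listed peaks, recovered exactly from the deposited values, came to 541900 in the ZHX2 library and 271694 in the Mut4 library. Among B-cell genes looked up, PAX5, CD79A, CD79B, MS4A1, CD37 and EBF1 had a listed peak and others did not, which says nothing of their expression.

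The integrated stress response begins when kinases that sense amino acid shortage, misfolded protein, viral RNA or mitochondrial stress phosphorylate the translation factor eIF2alpha. General protein synthesis then drops, while the mRNA of ATF4, a basic leucine zipper (bZIP) transcription factor, is translated more. ATF4 pairs with other bZIP proteins and switches on genes for amino acid synthesis and transport, for folate metabolism in mitochondria and, under lasting stress, for cell death. In lymphoma and other fast-growing cells the serine and folate enzymes among these targets supply nucleotides and glutathione.

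Promoters of 4 of the genes are shown because they hold the start sites at which the results turn: ATF4, MTHFD2 and PSAT1, whose starts lay inside a listed peak, and SESN2, whose start did not. Each is the 250 bases before the start site in RefSeq (GRCh38.p14, plus strand), at chr22:39520309-39520558, chr2:74198365-74198614, chr9:78296875-78297124 and chr1:28259268-28259517 in that order. A stretch of 30 bases of the ASNS promoter, at chr7:97872458-97872487 on the minus strand, is added because it holds the letters of an ATF4 composite site. Capitals mark 3 motifs on either strand: CCAAT, the box bound by NFY, the element CCACG, which follows such a box in endoplasmic reticulum stress elements, and the composite letters TGATGNAA.
ATF4: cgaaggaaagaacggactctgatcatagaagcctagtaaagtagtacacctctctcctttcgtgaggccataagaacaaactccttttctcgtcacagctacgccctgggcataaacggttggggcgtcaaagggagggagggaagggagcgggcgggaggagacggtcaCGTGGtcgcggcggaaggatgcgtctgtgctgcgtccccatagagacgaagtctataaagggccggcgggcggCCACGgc
MTHFD2: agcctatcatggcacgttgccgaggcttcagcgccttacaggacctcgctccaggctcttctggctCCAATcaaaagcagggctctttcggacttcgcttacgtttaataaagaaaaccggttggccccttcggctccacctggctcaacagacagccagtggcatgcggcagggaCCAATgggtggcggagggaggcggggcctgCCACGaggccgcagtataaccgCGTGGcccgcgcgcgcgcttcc
PSAT1: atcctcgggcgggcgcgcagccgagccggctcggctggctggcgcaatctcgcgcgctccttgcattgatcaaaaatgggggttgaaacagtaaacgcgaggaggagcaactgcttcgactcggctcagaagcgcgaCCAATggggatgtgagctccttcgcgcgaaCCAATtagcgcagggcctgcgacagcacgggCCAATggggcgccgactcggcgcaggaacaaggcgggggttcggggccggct
SESN2: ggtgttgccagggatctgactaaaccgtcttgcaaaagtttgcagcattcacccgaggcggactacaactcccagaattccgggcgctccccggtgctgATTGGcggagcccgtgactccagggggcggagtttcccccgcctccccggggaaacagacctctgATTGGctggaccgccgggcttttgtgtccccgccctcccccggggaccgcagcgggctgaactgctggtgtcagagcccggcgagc
ASNS: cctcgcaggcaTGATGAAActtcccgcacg

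In the windows searched the motif letters did not separate genes with a peak from genes without one. Windows of 300 bases, 250 before and 50 after the start, were searched on both strands for 5 motifs. These were the CCAAT box, the ATF4 composite letters TGATGNAA, the CREB and ATF palindrome TGACGTCA, the shorter core TGACGT that it contains, and the element CCACG. A window was at hand for 9 of the genes. Where a gene had several, the one nearest its listed peak was used, or the first given for a gene without a peak. For ATF3 no window had its start in the listed peak, so the promoter at that peak was not searched. For TRIB3 the searched start lay in the listed peak but was not the start the authors annotated. The peak centre was at -297 bp from the searched start and at -23 bp from the annotated one. The windows of these genes therefore do not describe the annotated start at their peak. PSAT1 held 3 CCAAT boxes, beginning 113, 83 and 52 bases before its start, and MTHFD2 held 2, at 184 and 74 bases. DDIT3 (100 and 76 bases) and SESN2 (151 and 86 bases) also held 2 and PHGDH 1 (71 bases), all without a listed peak. ATF4, the gene with the strongest peak of the group, held none. CCAAT was found in 34.6% of all 35116 RefSeq windows, in 31.5% of the 6691 windows whose start lay in a listed peak and in 35.3% of the others. TGATGNAA was found in ASNS alone among the 9, beginning 68 bases before the start, and in 3.62% of all windows. CCACG was found at ATF4 (80 and 7 bases), MTHFD2 (44 and 22 bases) and TRIB3 (147 bases), and in none of the other 6. All 3 of those starts lay in a peak, but so did that of PSAT1, which lacked the motif. CCACG was in 54.4% of windows with a covered start and 34.2% of the others. The palindrome and its core were in none of the 9 windows.

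The peaks lay both at gene starts and away from them. By the authors' deposited annotation, 5 of the 8 lay within 200 bp of a transcription start, against 46.7% of all listed peaks. The classes were promoter at 3 peaks (56.6% of all listed peaks), exon at 2 (9.48%), transcript end at 2 (4.55%) and intron at 1 (18.1%). All 8 were marked as unique to ZHX2, the mark of 95.5% of all listed peaks, so each entered the list through the peak call in ZHX2. They were long, with a median of 1269.5 bp where all peaks had 950 bp, and 7 of the 8 exceeded that. Of the 9 genes with a RefSeq window, 4 had a start site inside a listed peak (ATF4, MTHFD2, PSAT1 and TRIB3). The share among 15842 protein-coding genes with a window was 28.7%.

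**Figure D1:**
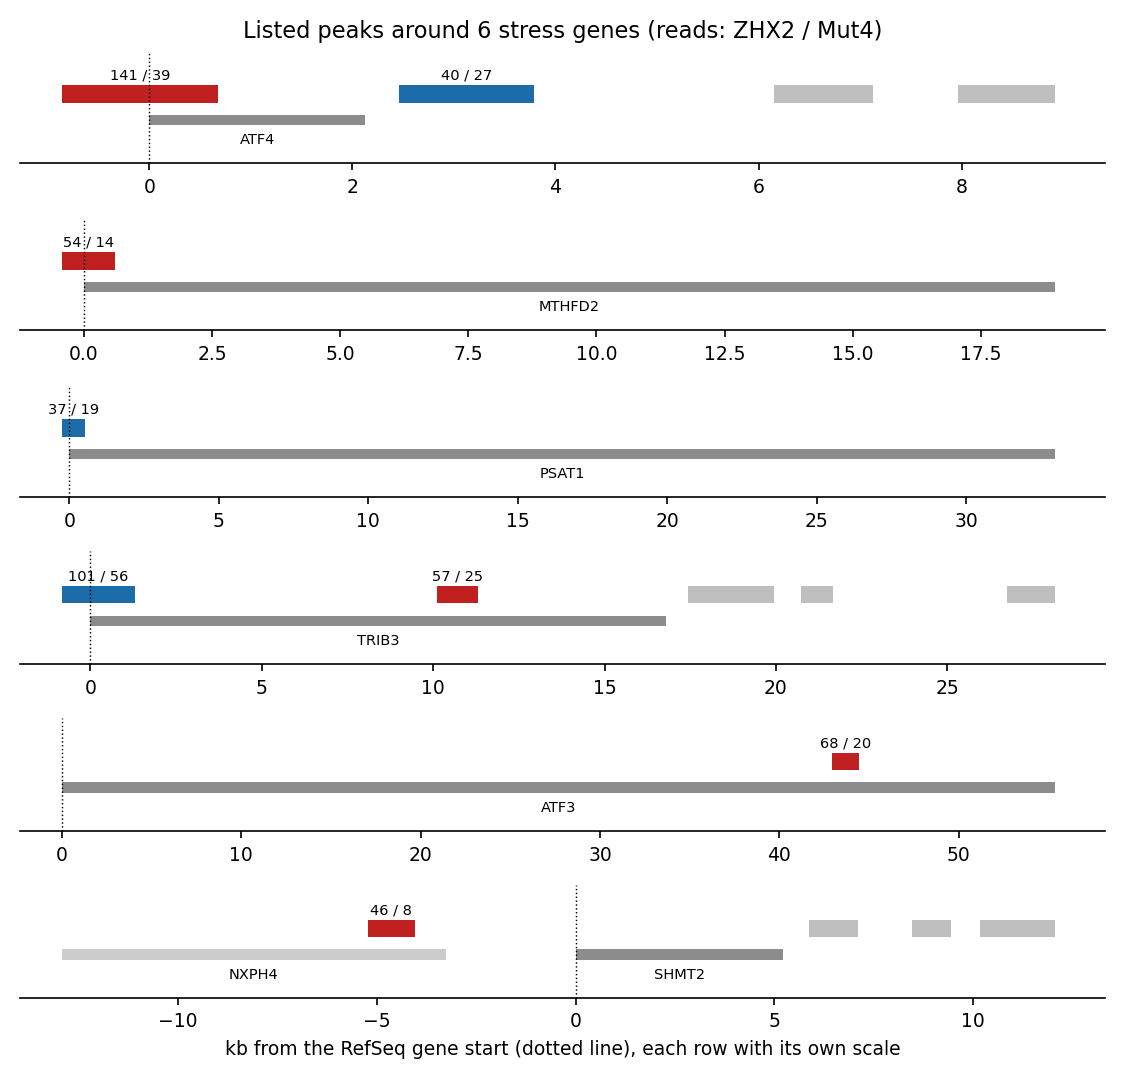
Listed peaks around the 6 stress genes that had one, in kb from the RefSeq gene start, with gene bodies as grey bars below and reads in ZHX2 and Mut4 above each peak. Red peaks were higher and blue peaks lower in ZHX2 under the authors' scaling, and light grey peaks were annotated to neighbouring genes. The SHMT2 peak lies over NXPH4. The promoter peaks of ATF4, MTHFD2 and TRIB3 and the PSAT1 peak cover a RefSeq start.

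ATF4 itself carried the strongest mean signal of the set and the highest density in ZHX2, while in Mut4 the TRIB3 promoter was slightly denser. Its promoter peak, on chromosome 22 from 39519699 to 39521234 (hg38, positions as deposited), lay at -98 bp from a transcription start, a minus sign meaning upstream, and held 141 reads in ZHX2 and 39 in Mut4. As CPM (scaled to the reads in peaks) per kb of peak this was a level of 163.6 in ZHX2 (exact Poisson 95% interval 138 to 193) and 96.9 in Mut4 (68.9 to 132). The density in ZHX2 lay above 95% of all listed peaks, and that in Mut4 above 64.0%. The level was thus higher in the ZHX2 library, with intervals that do not overlap. The ratio of ZHX2 over Mut4 was 1.69 (exact 95% interval 1.18 to 2.47), and 86.5% of listed peaks had a lower log2 fold. Intervals here and below cover counting error only, because there was 1 ChIP library per arm. Without molecular identifiers reads need not be separate molecules, so the intervals may be too narrow even for counting error.

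The other ATF4 peak lay beyond the gene. It ran from 39523016 to 39524349, began 330 bp past the end of ATF4 in RefSeq and was classed at a transcript end, 3118 bp from a start. With 40 reads in ZHX2 and 27 in Mut4, it had a level per kb of 53.4 (38.2 to 72.8) and 77.2 (50.9 to 112). Here ZHX2 was not above Mut4, and the ratio was 0.692 (0.414 to 1.17). The contrast between both peaks does not depend on how the libraries are scaled: the ZHX2 to Mut4 ratio at the promoter was 2.43 times that at the transcript end (exact conditional 95% interval 1.27 to 4.64). On the log2 scale the gap was 1.28. Among 93 genes with a promoter peak and a transcript-end peak, the median gap was -0.041 (quartiles -0.54 and 0.43), and 93.5% of those genes had a smaller gap than ATF4. Further on, peaks annotated to RPS19BP1 at 4026 and 5840 bp past the end of ATF4 held 35 and 17 reads and 46 and 18 reads, with ratios of 0.961 (0.524 to 1.83) and 1.19 (0.679 to 2.19).

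Among promoter peaks of other genes, those nearest to the ATF4 promoter on the plane of log2 fold and log2 CPM were ATF1, AC008115.1 and CD164. ATF1, itself a bZIP factor, held 136 and 38 reads, AC008115.1 held 147 and 40, and CD164 held 135 and 38. The distances on the plane were 0.048, 0.056 and 0.058, over 2 libraries.

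**Figure D2:**
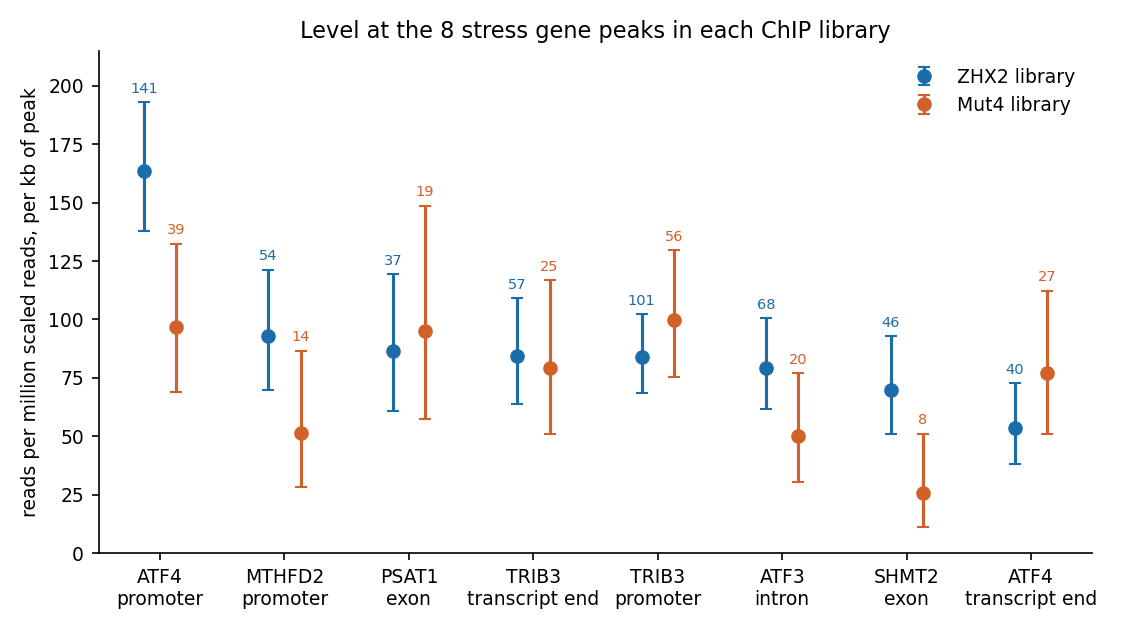
Level at the 8 peaks in each ChIP library, as CPM per kb of peak, with exact 95% Poisson intervals and the read number above each. The ATF4 promoter in ZHX2, at 163.6, stands above the upper limits of the other 7 peaks in that library, the highest being 121 at MTHFD2.

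The stress-induced transcription regulators beside ATF4 differed from each other. ATF3, a bZIP factor induced by many stresses, had a peak on chromosome 1 from 212608321 to 212609848 that was classed as intron but lay 169 bp from a transcription start of a shorter ATF3 transcript. It began 42.9 kb into the gene as RefSeq draws it, and neither of the 2 RefSeq windows of ATF3 had its start there. Its reads numbered 68 in ZHX2 and 20 in Mut4, for a level per kb of 79.3 (61.6 to 100.5) and 49.9 (30.5 to 77.1). The ZHX2 level was the higher of the pair, with intervals that overlap, and the ratio was 1.59 (0.953 to 2.76). DDIT3, which encodes the death-promoting factor CHOP, had no listed peak, and the nearest one lay 84.0 kb from its start at the promoter of DTX3, with 22 reads in ZHX2 and 2 in Mut4.

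TRIB3, a pseudokinase induced by ATF4 and CHOP that binds ATF4 in return, had a promoter peak with a strong mean signal and little difference. On chromosome 20 from 379929 to 382067, the longest peak of the set at 2138 bp, it had 101 ZHX2 reads and 56 Mut4 reads. The level per kb was 84.1 (68.5 to 102) in ZHX2 and 99.9 (75.5 to 130) in Mut4, and the ratio was 0.842 (0.602 to 1.19). Its mean signal, a log2 CPM of 7.65 in the authors' deposited table, was close to that of the ATF4 promoter at 7.71. That signal is not corrected for length, and its density lay above only 56.8% of listed peaks in ZHX2 and 66.4% in Mut4. The other TRIB3 peak, from 390871 to 392077, lay 10.1 kb into the gene at the end of a short transcript. It held 57 and 25 reads, a ratio of 1.06 (0.655 to 1.78). The gap between promoter and transcript end of TRIB3 was -0.34 on the log2 scale, and the ratio at the end was 1.26 times that at the promoter (0.689 to 2.35), an interval that takes in 1. Just past TRIB3, 624 and 3943 bp from its end, 2 intergenic peaks annotated to RBCK1 held 106 and 47 reads (ratio 1.05, 0.740 to 1.52) and 58 and 27 reads (1.003, 0.625 to 1.65).

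The enzymes of serine synthesis and of the mitochondrial folate pathway were split. PHGDH makes the first step of serine synthesis from a glycolytic intermediate and PSAT1 the step after it. PHGDH had no listed peak on its gene, and the nearest one, at the NOTCH2 promoter, lay about 325 kb from it. PSAT1 had an exon peak on chromosome 9 from 78296879 to 78297640, 116 bp from its start, with 37 reads in ZHX2 and 19 in Mut4. Its level per kb was 86.6 (61.0 to 119) and 95.2 (57.3 to 149), nearly the same in both libraries, with a ratio of 0.909 (0.510 to 1.67). MTHFD2, a mitochondrial folate dehydrogenase and cyclohydrolase, had a promoter peak on chromosome 2 from 74198186 to 74199220. Its 54 reads in ZHX2 and 14 in Mut4 made a level per kb of 93.0 (69.9 to 121) and 51.6 (28.2 to 86.6). The ZHX2 level was higher with overlapping intervals, and the ratio was 1.801, with an interval (0.987 to 3.51) that took in 1. Of peaks whose gene symbol extends that of MTHFD2, MTHFD2L, its mitochondrial paralog, had 40 and 17 reads at its promoter and a ratio of 1.099 (0.609 to 2.07), while MTHFD2P5, a pseudogene 52064 bp from its peak, had 16 and 11.

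The peak listed for SHMT2, the mitochondrial enzyme that passes a carbon unit from serine to folate, had the highest ratio of the set but did not lie on the gene. It ran on chromosome 12 from 57224490 to 57225666, at -4495 bp from the nearest annotated start, and ended 4045 bp before SHMT2 begins in RefSeq. Its class was exon, and the gene it overlapped in RefSeq was NXPH4, which spans 57216794 to 57226449 and encodes a neurexophilin. There were 46 reads in ZHX2 and only 8 in Mut4, a level per kb of 69.7 (51.0 to 92.9) and 25.9 (11.2 to 51.1). The Mut4 library was the low one here, with a density above only 2.95% of listed peaks, whereas the ZHX2 density lay above 35.1%. The level intervals of the libraries just touched, and the ratio was 2.69 (1.25 to 6.59). No peak was listed at the start of SHMT2. At its far end, 640 bp past SHMT2, began a peak annotated to NDUFA4L2 with 40 and 11 reads (1.70, 0.855 to 3.67), and 3242 bp past it another with 33 and 21 (0.734, 0.412 to 1.33). The NDUFA4L2 promoter peak held 70 and 50 reads and had a ratio below 1, 0.654 (0.448 to 0.960).

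ASNS, which makes asparagine, and SESN2, a leucine sensor that restrains mTORC1, completed the set without a listed peak. For ASNS the nearest listed peak lay 234 kb from the start, at LMTK2. For SESN2 it lay 22.7 kb away at the promoter of ATP5IF1, where reads numbered 74 and 42, for a ratio of 0.823 (0.556 to 1.23). A gene outside the list may still hold signal that the authors' peak calling did not keep.

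Taken by sign under the authors' scaling, 5 of the 8 peaks were higher in ZHX2 and 3 lower, where 50.4% of all listed peaks were higher and 49.6% lower. The median log2 fold of the 8 was 0.38 against 0.0046 over all peaks. Past 2-fold higher lay 1 of the 8, the SHMT2 peak, where 8.44% of all peaks were, and 0 lay past 2-fold lower, where 5.31% of all peaks were. The counting interval was above 1 at 2 peaks (ATF4 promoter and SHMT2), where it was above 1 at 11.0% of all peaks. As all 8 were listed through the peak call in ZHX2, these folds and intervals are not independent of that call. By the authors' deposited table, which compares 2 libraries, 0 of the 8 peaks had an adjusted p under 0.05, where 5.95% of all peaks had one. The same authors' deposited table gives 0.116 at SHMT2, the lowest adjusted p of the 8, and 0.213 at the ATF4 promoter. By the peak nearest a start, 4 of the 6 genes were higher, where 51.5% of all genes with a peak were. The median log2 fold of the 6 was 0.71. That median was 0.66 without the SHMT2 peak that lies over NXPH4, and 0.39 when a gene's peaks were averaged.

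**Figure D3:**
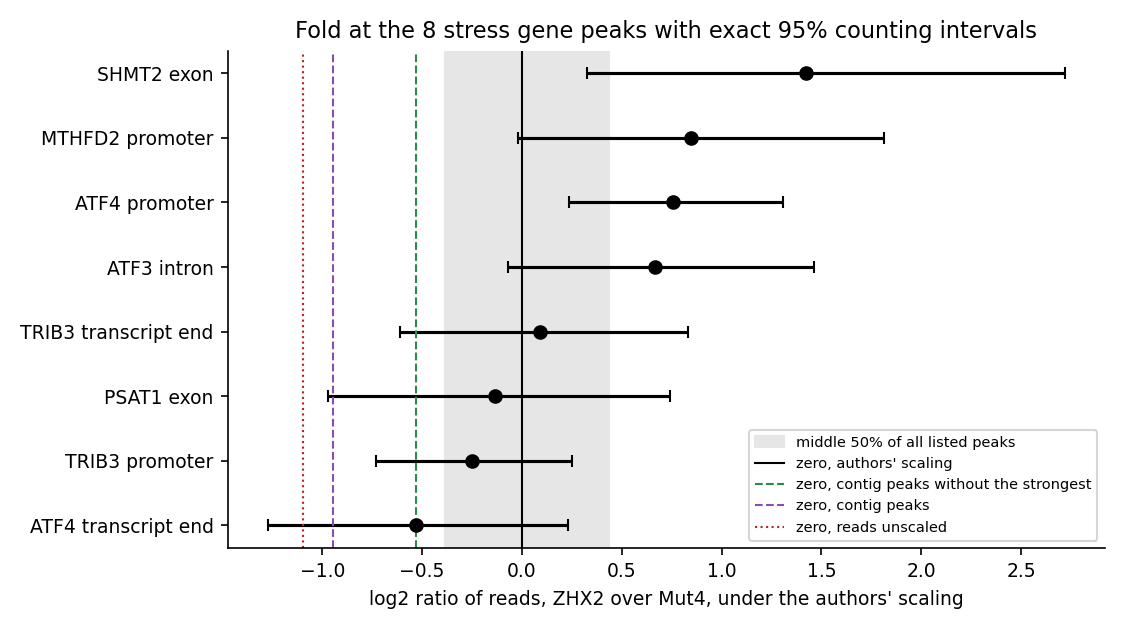
Log2 ratio of reads, ZHX2 over Mut4, at the 8 peaks under the authors' scaling, with exact 95% counting intervals. Vertical lines show where the zero moves under other scalings, at most 1.10 to the left, and the grey band is the middle 50% of all listed peaks. The points of SHMT2, MTHFD2, the ATF4 promoter and ATF3 stand to the right of the band, though their intervals reach into it.

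The direction at 3 peaks depended on the scaling. The SHMT2, MTHFD2, ATF4 promoter and ATF3 peaks and the TRIB3 transcript end were higher in ZHX2 under the authors' scaling and with reads left unscaled, which adds 1.10 to each log2 fold. They were also higher when 52 peaks on unplaced contigs set the scale, which adds 0.95, and when the strongest of these was dropped, which adds 0.53. Only contig peaks marked as unique to ZHX2 or as common to both were used. Any marked as Mut4-unique were left out, so this reference was itself chosen by the peak call in ZHX2. The TRIB3 promoter, at -0.25, and PSAT1, at -0.14, turned positive with unscaled reads and under both contig scalings. The ATF4 transcript end, at -0.53, turned positive with unscaled reads and with all 52 contig peaks, and stood at -0.00051 without the strongest. With unscaled reads all 8 peaks were higher, but so were 95.9% of all peaks, and 7 had an interval above 1, but so had 71.1%. Under the contig scalings 94.0% of all peaks were higher, and 82.0% without the strongest contig peak.

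Within the set the order of ratios was SHMT2, MTHFD2, ATF4 promoter, ATF3, TRIB3 transcript end, PSAT1, TRIB3 promoter and ATF4 transcript end, and it is the same under any scaling. The intervals of neighbours in that order overlap, which sorting on the ratio favours. As a description of genes selected on these values, the ratio at the ATF4 promoter was 2.00 times that at the TRIB3 promoter (counting interval 1.20 to 3.35), and the ratio at SHMT2 was 3.17 times that (1.36 to 8.34). Both contrasts are among the 9 of 28 pairs of peaks whose interval lay apart from 1. Others took in 1, such as the ATF4 promoter over PSAT1 (1.85, 0.902 to 3.74).

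**Figure D4:**
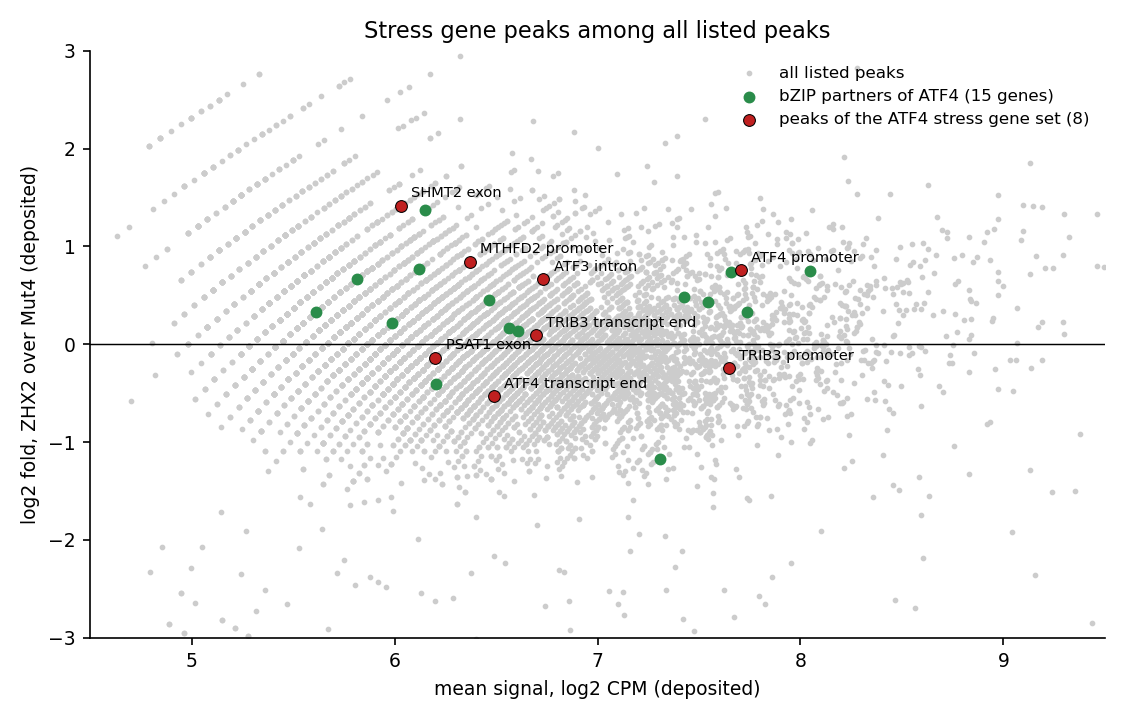
Log2 fold of ZHX2 over Mut4 against mean signal in log2 CPM, both as deposited, for all listed peaks (grey, 175 outside the axes), the 8 stress gene peaks (red) and the 15 bZIP genes with a peak (green). The ATF4 promoter and TRIB3 promoter have nearly the same mean signal and stand on opposite sides of zero.

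The wider stress response was read from 7 lists of other genes, each gene by its peak nearest a start. Of 135 genes 73 had a peak (54.1%), against 28.7% of all coding genes in RefSeq. The 2 shares are not quite alike, as the lists also took older symbols and the RefSeq share current symbols alone. Under the authors' scaling 38 of them were higher and 35 lower in ZHX2, where 51.5% of all genes with a peak were higher. Their median log2 fold was 0.035. Past 2-fold lay 4 higher and 6 lower, where over all 7640 genes with a peak 8.34% were past 2-fold higher and 4.29% lower. The counting interval was above 1 at 6 genes and below 1 at 8, against 11.2% and 10.0% over all genes. Of the 73 peaks 72 were marked as unique to ZHX2, so these values too depend on the peak call in ZHX2.

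The upstream part of the pathway held ratios on both sides of 1. Of 9 genes for eIF2alpha kinases and their control 4 had a peak, of which 1 was higher and 3 were lower. Over all genes with a peak 48.5% were lower. The median log2 fold of the 4 was -0.39, but 0.71 with unscaled reads and 0.56 and 0.14 with the contig scalings. DNAJC3, a chaperone that inhibits eIF2alpha kinases, held 71 and 53 reads and a ratio of 0.626 (0.432 to 0.911). IMPACT, which binds the GCN2 activator GCN1, had 99 and 53 reads (0.872, 0.619 to 1.24). OMA1, a mitochondrial protease that relays stress to the kinase EIF2AK1, had 30 and 21 (0.667, 0.369 to 1.23), and EIF2AK1 had 57 and 25 (1.06, 0.655 to 1.78). The kinases EIF2AK2, EIF2AK3 and EIF2AK4 had no listed peak.

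Of 15 genes for eIF2, eIF2B and the eIF2alpha phosphatase 6 had a peak, of which 3 were higher and 3 lower, and the median was 0.16. None of the 5 eIF2B genes had one. EIF2S2, the beta subunit of eIF2, held 40 reads in each library, a ratio of 0.467 (0.294 to 0.743). EIF2S3, its gamma subunit, held 78 and 28 (1.30, 0.835 to 2.08). Of the phosphatase genes PPP1CC held 93 and 26 reads (1.67, 1.07 to 2.69), PPP1R15B 93 and 33 (1.32, 0.876 to 2.02) and PPP1CB 67 and 41 (0.763, 0.510 to 1.15).

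The bZIP partners and relatives of ATF4 leaned the way the ATF4 promoter did. Of 22 genes 15 had a peak, of which 13 were higher and 2 lower in ZHX2. The median log2 fold was 0.44, where 51.5% of all genes with a peak were higher. The count was 14 of 15 with unscaled reads and with both contig scalings, where 96.9%, 95.1% and 83.2% of all genes were higher. Among the 9 at or above the median signal 8 were higher, where 46.6% of all such genes were. CREB1, the cAMP-responsive factor, had 50 ZHX2 reads and 9 Mut4 reads (2.59, 1.26 to 6.001). CREM held 180 and 50 (1.68, 1.22 to 2.35) and ATF1 136 and 38 (1.67, 1.16 to 2.46), and these 3 were the genes of the list with an interval above 1, where 11.2% of all genes had one. CREB3, also on the list, had 53 and 22 reads (1.13, 0.673 to 1.94) and is named here after its values were seen. JUND held 129 and 48 (1.26, 0.895 to 1.79) and CEBPD 116 and 40 (1.35, 0.938 to 1.99). ATF5, the closest relative of ATF4, went the other way, with 55 ZHX2 reads, 58 Mut4 reads and a ratio of 0.443 (0.301 to 0.652), and it held more reads in Mut4 before any scaling. The list was drawn up with earlier results of these libraries known, and it was not tested.

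Of 15 serine and folate enzymes outside the set 8 had a peak, of which 3 were higher and 5 lower, and the median was -0.13. None of the 8 had an interval apart from 1, where 21.2% of all genes had one. DLD held 60 and 40 reads (0.7005, 0.462 to 1.07), TYMS, thymidylate synthase, 61 and 35 (0.814, 0.529 to 1.27) and MTHFD1L 51 and 22 (1.08, 0.645 to 1.87). Other amino acid enzymes and transporters were 6 higher and 6 lower of 12 with a peak, from 22 genes, with a median of -0.013. GPT2, mitochondrial alanine aminotransferase and an ATF4 target, had 21 ZHX2 reads and 23 Mut4 reads (0.426, 0.224 to 0.806). BCAT2 held 90 and 52 (0.808, 0.568 to 1.16), SLC1A5 61 and 39 (0.730, 0.481 to 1.12), SLC38A2 50 and 26 (0.898, 0.548 to 1.503) and SLC1A4 61 and 19 (1.499, 0.884 to 2.66).

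**Figure D5:**
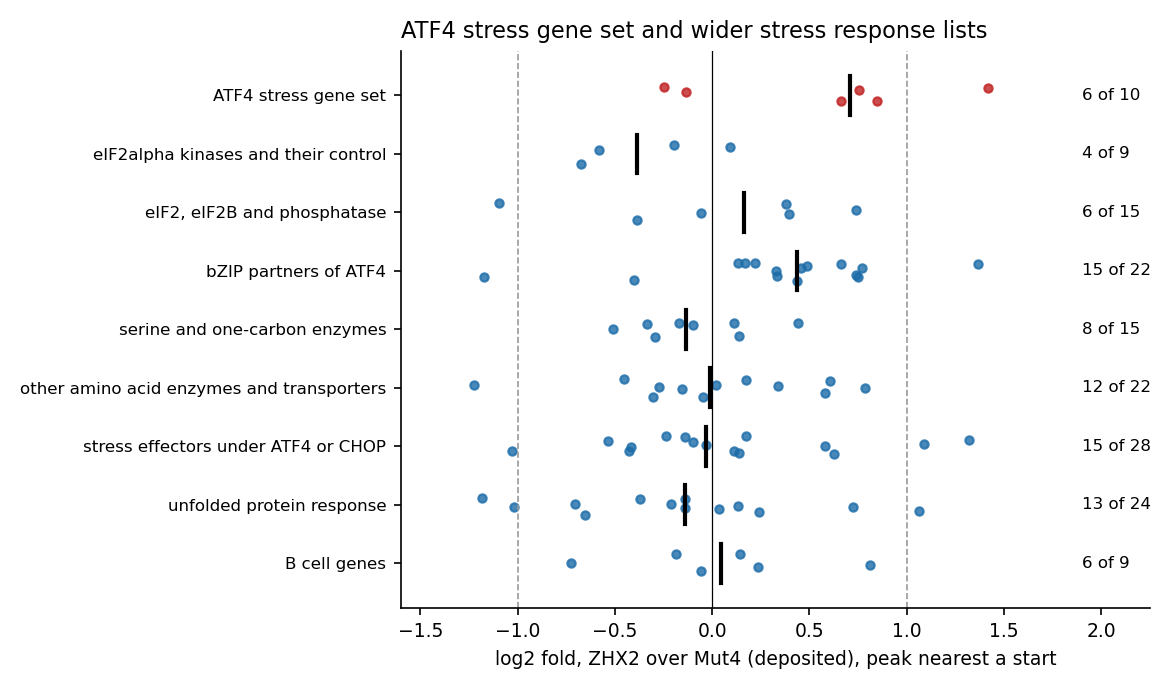
Deposited log2 fold of the peak nearest a start for each gene with a peak, by list, with the list median as a black bar, dashed lines at 2-fold and the number of genes with a peak of all genes on the list at the right. The bZIP list has 13 of 15 genes to the right of zero, and the other 6 pathway lists have medians between -0.39 and 0.16.

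Stress effectors under ATF4 or CHOP were 7 higher and 8 lower of 15 with a peak, from 28 genes, with a median of -0.034. BCL2L11 and BBC3, which encode the death factors BIM and PUMA, held 159 and 76 reads (0.977, 0.739 to 1.302) and 81 and 35 (1.08, 0.719 to 1.66). SESN1, a paralog of SESN2, held 23 and 5 (2.15, 0.799 to 7.23). The tRNA synthetase genes pointed both ways: NARS1 held 125 and 39 reads (1.497, 1.04 to 2.203), EPRS1 72 and 45 (0.747, 0.508 to 1.11), AARS1 24 and 23 (0.487, 0.263 to 0.903), and GARS1 27 and 5 (2.52, 0.957 to 8.39) at an intergenic peak 10629 bp from its start.

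Genes of the unfolded protein response were 5 higher and 8 lower of 13 with a peak, from 24 genes, with a median of -0.14. ERN1, which encodes the stress sensor IRE1, held 45 and 10 reads (2.10, 1.04 to 4.68). Below 1 with their intervals were 3 of the 13, where 10.0% of all genes with a peak were: the chaperone gene HYOU1 held 31 and 33 (0.439, 0.260 to 0.739), DNAJB11 58 and 55 (0.492, 0.335 to 0.726) and CALR 55 and 42 (0.612, 0.402 to 0.937) at an intergenic peak at -1488 bp from its start. SYVN1 (70 and 36 reads) and HERPUD1 (68 and 31 reads), both of the degradation pathway, had ratios of 0.908 (0.599 to 1.40) and 1.02 (0.661 to 1.62). HSPA5, ATF6 and XBP1 had no listed peak. The medians below zero in these lists turn positive with unscaled reads and under both contig scalings.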

How the data were processed

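Per the labels' protocols, DB cells were fixed with formaldehyde, and a company sonicated the chromatin, ran the anti-ZHX2 precipitation and made the libraries. Per the submitters' processing notes, which assign no roles, the tools were MACS2 2.2.6, BWA 0.7.17, HOMER, Trim Galore 0.6.4, deepTools 3.4.3, Picard 2.22.2-0, FastQC 0.11.9 and MultiQC 1.8, on hg38. The one table used was made by the authors and, per the file headers, gives a log2 fold and a log2 CPM for each peak, with its p-value and adjusted p-value, class, distance and gene. A positive fold means more signal in ZHX2, as all 210 peaks that the table marks as Mut4-unique are negative. Not given in the sources used here are the base that starts count from (0 or 1) and the handling of reads that map to several places. Input libraries were not analysed here. No column of per-sample values went unused.

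Whole reads per library were solved from each deposited log2 fold and log2 CPM, with prior counts of 0.25 reads in all for the fold and a mean of 2 for the CPM and a dispersion of 0.05. In 8871 of 8871 peaks (100%) they gave both deposited values back within 1e-09, and the procedure was tested on simulated data. Scaled library sizes were 561493 and 262213, a ratio of 2.14, so folds are relative to reads in listed peaks. Median reads per peak were 45 for ZHX2 and 22 for Mut4, so precision is lower in Mut4. Ratios are reads over scaled sizes, with Clopper-Pearson 95% intervals, and contrasts between peaks are conditional odds ratios (scipy 1.17.1, Python 3.11.15). With 1 library per arm no p-value was computed and called means past 2-fold.

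The genes, lists and alternatives were chosen with earlier results of these data known. Named genes are the 10 of the set and, per list, the 4 of strongest signal and those past 2-fold, apart from items not reported here. Gene spans and promoters are from RefSeq GRCh38.p14.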

Additional observations from a re-analysis of the deposited data

How the results depend on the processing

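No value here has replicate error, and at the Mut4 depth a peak such as that of SHMT2, with 8 reads, leaves a wide interval. No paired analysis was possible because each arm had 1 ChIP library. Centring on the median of all peaks moved no value beyond its interval. With reads left unscaled the log2 folds were 1.85 at the ATF4 promoter, 0.57 at its transcript end, 1.76 at ATF3, 0.85 and 1.19 at the TRIB3 promoter and transcript end, 0.96 at PSAT1 and 1.94 at MTHFD2, each outside the interval under the authors' scaling. Scaled to contig peaks they were 1.70, 0.42, 1.61, 0.70, 1.04 and 0.81 at the same peaks without MTHFD2, and without the strongest contig peak the TRIB3 promoter stood at 0.28. The cause was the shift that each scaling adds to all peaks. The gene median, 0.71, was 1.81 with unscaled reads, 1.65 and 1.24 with the contig scalings and 0.39 when a gene's peaks were averaged. It was 0.71 with the strongest peak per gene, 0.75 over promoters and 0.66 without SHMT2, an alternative chosen after seeing the data. Of the 73 list genes with a peak, 13 were past 1.5-fold higher and 9 lower (all genes 19.3% and 14.4%), and 0 and 0 past 4-fold (0.995% and 1.34%). With unscaled reads 43 were past 2-fold higher and 0 lower (59.3% and 1.31%), and among the 38 at or above the median signal 0 and 4 were (4.90% and 3.68%).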

Other observations

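Over all RefSeq promoter windows, starts inside a listed peak differed in letters from the others, given here as values with no test. TGACGTCA, the palindromic site of CREB and ATF factors, was in 4.51% of the 6691 windows with a covered start and 1.22% of the 28425 others, and its core TGACGT in 14.6% and 6.43%. TGATGNAA, the letters of the ATF4 composite site, was in 1.17% and 4.19%. Median GC content was 68% in covered windows and 58.7% in all windows, and its part in these shares was not tested. Of the 9 stress gene windows, that of ATF4 had 57.3% GC and that of TRIB3 77.0%.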
